A study of Bombus lucorum with 81 samples.

Results

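The 200 genes whose transcript level varied least among worker bumblebees of Bombus lucorum were examined across 81 bees caught along a mountain slope. Each gene's counts were scaled to CPM, its counts relative to the library's total on a common scale, with TMM-adjusted library totals, a scaling that matches the bulk of the genes between libraries. Among the 5813 of 10581 genes with a mean of at least 20 CPM over all bees, the 200 with the smallest standard deviation (SD) of log2(CPM + 1) were taken. The members were thus chosen by their SD over all 81 bees. Their SD, range and overall spread are what the choice used, and they are given below as a description.

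Bombus lucorum is a bumblebee whose workers forage from valley floors to alpine meadows. The bees were wild-caught workers from 16 sites in an Alpine national park and its surroundings, taken without any treatment, and sorted by altitude into 3 belts. The lowland belt held 30 bees from 6 sites at 641 to 987 m, the mid-elevation belt 25 bees from 5 sites at 1140 to 1423 m, and the highland belt 26 bees from 5 sites at 1579 to 1930 m. Mean annual temperature ran from 9.0 °C at the lowest site to 4.58 °C at the highest. Of the sites, 14 gave 5 bees each, site Wmb5 gave 2 and site H6 gave 9. RNA came from single bees without head, legs, wings and gut. Bees of one site may have come from one colony, which the labels do not resolve, so p-values over bees measure the spread between bees and not between colonies. The study's site descriptions list the mid-elevation sites as grazed pasture, so that belt and grazing cannot be told apart there. The paper, in contrast, states for its study sites that grazing was spread evenly over the gradient and not correlated with it. Grazing was not used as a group here, and no belt comparison was adjusted for it.

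Genes with an even transcript level are used as internal references when other genes are measured, and they are classically sought among genes that every cell needs, such as those of protein synthesis, the cytoskeleton and basic energy metabolism. In a whole thorax and abdomen the level also averages over flight muscle, fat body, cuticle, nerve and gland. In such bulk RNA, fewer cells of a type and less RNA per cell cannot be told apart.

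Library totals ran from 15700759 to 33784279 counts with a median of 26082949. Of the muscle genes found by name, 8 of 11 reached a mean of 20 CPM. So did vitellogenin and hexamerin of the fat body, but their medians over bees were 14.2 and 2.07 CPM, with highest bees at 358 and 4523 CPM. A vitellogenin-like gene had a mean of 10.2 and a median of 1.48 CPM. Digestive genes were also present although the gut had been removed, with 6 of 13 genes named as trypsin, chymotrypsin or peritrophin, or as inhibitors of these, at a mean of at least 20 CPM. A gut-type score, the mean log2 level of some of these genes relative to all bees, ran from −8.09 to 5.97 over bees. It took peritrophin-1, chymotrypsin-1 and chymotrypsin-1-like genes, down to a mean of 1.04 CPM, and no trypsin or inhibitor. The length slope, the slope of log2 level on log2 exon length within a library, ran from −0.06 to 0.47. The paper reports RNA integrity numbers from low to high for its samples. No integrity value per bee was used here, so a link between RNA quality and this slope was not tested. The median gut-type score was −5.89 in lowland, 4.17 in mid-elevation and 4.55 in highland bees, and the median length slope was 0.32, 0.25 and 0.27. Both values are given below beside the results they touch.

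The 200 genes were expressed at moderate levels. Their mean level ran from 20.3 to 1634 CPM with a median of 56.2 CPM, against a median of 58.7 CPM over all 5813 genes. Per kilobase of exon the median was 20.1 CPM against 23.2 CPM. Of the genes with a mean of 200 CPM or more, 10 of 878 were among the 200 (1.14%), compared with 80 of 1555 between 50 and 100 CPM (5.14%), 30 of 914 between 100 and 200 CPM (3.28%) and 80 of 2466 between 20 and 50 CPM (3.24%). The median SD over all genes was also largest in the class of 200 CPM or more, at 0.583, and it was 0.347 between 20 and 50 CPM. Very abundant transcripts were thus few in the set.

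**Figure D1:**
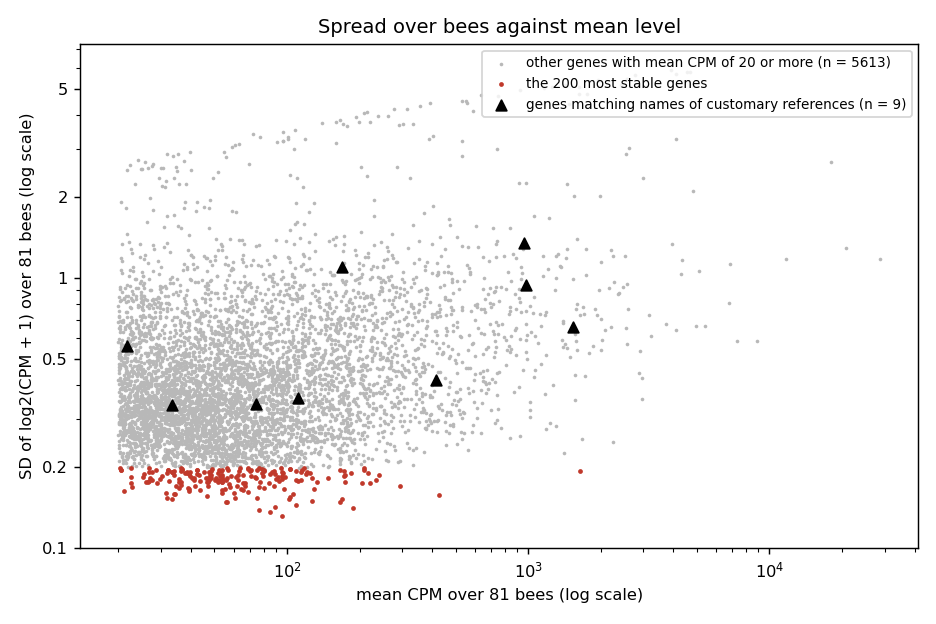
SD of log2(CPM + 1) over 81 bees against mean CPM, both on log axes, for 5813 genes with a mean of at least 20 CPM. Red points are the 200 genes of smallest SD, which lie along the lower edge between 20.3 and 1634 CPM, and black triangles are 9 genes whose names match customary references, 5 of them named only in the study's tables of differing genes, with SDs between 0.339 and 1.34.

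Their SD ran from 0.131 to 0.199 with a median of 0.182 on the log2 scale, whereas the median over the 5813 genes was 0.378. The distance between the highest and the lowest bee had a median of 0.91 log2 units in the 200 and 1.92 over the 5813 genes. As plain CPM, the highest bee held 1.52 to 2.44 times the level of the lowest bee, with a median of 1.90 times. Even the most stable transcripts of these bees therefore spanned nearly a doubling between single bees. Counting error made up little of it: the SD expected from the counts alone had a median of 0.0383, which is 4.67% of the variance of the 200 genes at the median and 0.99% over the 5813 genes.

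At the limit of the set the SD had no gap. The last genes inside were LOC100650321 with an SD of 0.1979, LOC100646973 with 0.1984 and LOC100643663 with 0.1986. The first genes outside were LOC100648458 with 0.1986, LOC100651323 with 0.1988 and LOC100645572 with 0.1989. The limit of 200 is thus a chosen number and not a step in the data.

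The gene of smallest SD, LOC100651378, had an SD of 0.131 and a mean of 95.7 CPM. Its level ran from 79.2 CPM in the lowest bee over a median of 95.5 CPM to 121 CPM in the highest bee. LOC100651594 followed with a lowest, median and highest level of 64.0, 84.4 and 106 CPM, and LOC100649048 with 59.5, 75.6 and 94.5 CPM. In all 3 genes the ranges of the belts overlapped.

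LOC100643251 was more abundant, with 141, 187 and 240 CPM as lowest, median and highest level. LOC100650571 ran from 70.8 over 88.2 to 133 CPM and LOC100651584 from 78.5 over 110 to 147 CPM. Their highest bees stood clear of the median by more than their lowest ones did. LOC100651998 (45.4, 55.4 and 70.8 CPM), LOC100644135 (121, 167 and 204 CPM), LOC100642558 (43.8, 56.1 and 70.3 CPM) and LOC100648464 (98.2, 127 and 160 CPM) completed the 10 genes of smallest SD. The sources used here give no name for any of these 10 genes. All 10 stayed among the 200 when each of the 16 sites was left out in turn, and 137 of the 200 did so.

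**Figure D2:**
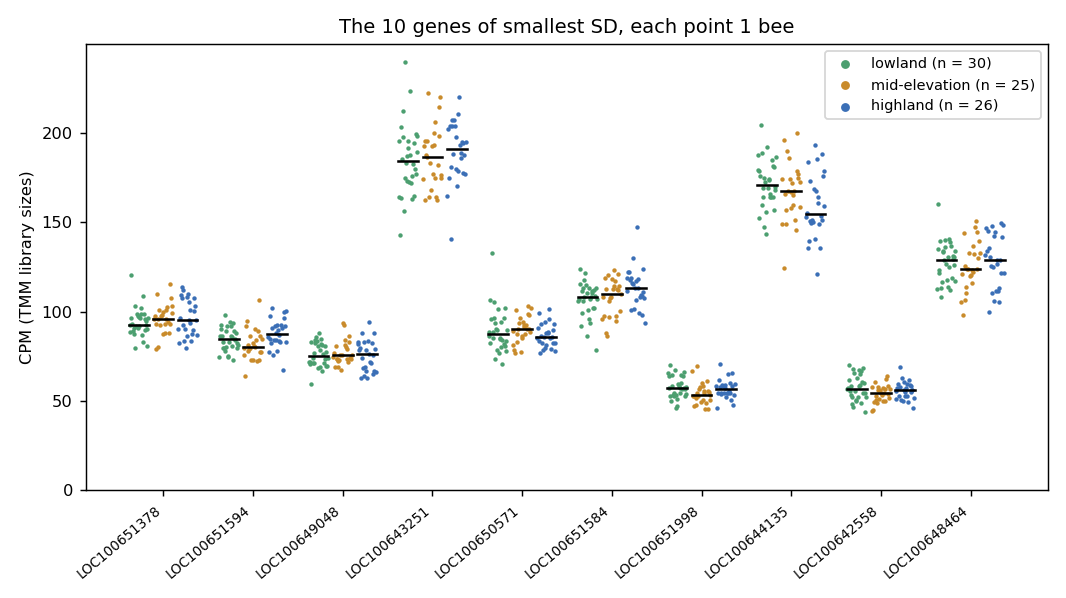
CPM in every bee for the 10 genes of smallest SD, by belt (30 lowland, 25 mid-elevation and 26 highland bees), with a black line at each belt's median. The bees of the 3 belts overlap in each gene, and the widest span in CPM is that of LOC100643251, from 141 to 240 CPM.

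The sources used here name 1777 of the 10581 genes, and 19 of the 200. All 19 names come from an annotation list in genome order that covers 503 of the 5813 genes, so these names were not picked for how the genes behaved. Of the 19, 2 are uncharacterised proteins (10.5%), close to the 12.1% among the 503. The groups below were formed after the names were seen.

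A first group of the named genes belongs to signalling from the cell surface. Bone morphogenetic protein receptor type-2 (LOC100647132), a kinase that receives BMP ligands and starts the Smad cascade, had a lowest, median and highest level of 65.4, 97.3 and 124 CPM over bees. The gene named mothers against decapentaplegic homolog 3 (LOC100646575), a Smad, which in mammals carries signals of the related TGF-beta and activin ligands to the nucleus, ran from 38.2 over 54.3 to 71.1 CPM. Suppressor of cytokine signaling 5 (LOC100644872), of a family that dampens cytokine receptors in mammals, ran from 46.9 over 65.3 to 85.0 CPM. A receptor and a transducer of one signalling family were thus both in the set, with SDs of 0.165 and 0.179.

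A second group acts on membrane lipids, membrane anchoring and the actin skeleton. Myotubularin-related protein 13 (LOC100645183), of a family of phosphoinositide phosphatases with inactive members, ran from 39.4 over 53.5 to 70.3 CPM and was the named gene of smallest SD, at 0.164. Phosphoinositide 3-kinase regulatory subunit 4 (LOC100649679), the partner of the lipid kinase that serves endosomes and autophagy, ran from 35.9 over 47.5 to 60.3 CPM. FYVE, RhoGEF and PH domain-containing protein 4 (LOC100646734), an activator of Cdc42 in mammals, ran from 22.8 over 32.05 to 47.9 CPM. Its target there, the small GTPase Cdc42 (LOC100646168), which organises actin and cell polarity, ran from 50.9 over 70.01 to 103 CPM. The palmitoyltransferase ZDHHC3 (LOC100647801), which attaches palmitate to proteins, had the lowest mean of the whole set and ran from 12.97 over 20.3 to 29.1 CPM. Ankyrin repeat domain-containing protein 13C (LOC100642790) ran from 25.2 over 35.6 to 45.7 CPM.

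Another group handles ubiquitin and protein breakdown. Ariadne-2 (LOC100649560), a RING-type ubiquitin ligase, ran from 25.6 over 34.5 to 47.5 CPM. F-box only protein 44 (LOC100648541), of the family that chooses substrates for cullin ligases, ran from 22.6 over 31.7 to 42.2 CPM. FAS-associated factor 1 (LOC100645550), a ubiquitin-binding adaptor of the segregase p97 in mammals, ran from 63.0 over 86.7 to 122 CPM. The 26S protease regulatory subunit 10B (LOC100650140), an ATPase of the proteasome's base, ran from 90.9 over 111 to 190 CPM. Its highest bee stood further from the median than its lowest.

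A last group works in the nucleus. Serine/arginine repetitive matrix protein 2 (LOC100649798), a spliceosome component, ran from 46.2 over 68.6 to 91.6 CPM. The nuclear valosin-containing protein-like ATPase (LOC100647802), which serves assembly of the large ribosomal subunit, ran from 25.7 over 42.5 to 56.5 CPM. PAX3- and PAX7-binding protein 1 (LOC100644794), an adaptor of PAX transcription factors in mammals, ran from 22.8 over 33.1 to 48.0 CPM. WD repeat-containing protein 89 (LOC100644282) ran from 54.1 over 78.7 to 113 CPM, and the uncharacterised LOC100646816 and LOC100646973 had medians of 40.8 and 22.9 CPM.

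Name families were then counted. The 200 make up 3.44% of the 5813 genes, so a small family can hold no member without standing apart. Names came in part from the study's tables of genes that differed between its groups, which favours variable genes, so the counts below use only names from the annotation list in genome order and the count table. These name 520 of the 5813 genes, of which 19 were members (3.65%), and their median SD was 0.375. Each family holds only what its search words matched. The receptor kinase, Cdc42, the splicing component and the proteasome ATPase described above fell outside these words, so a count of 0 speaks of the searched names and not of the function.

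Of the 20 translation genes so named (ribosomal proteins, initiation and elongation factors, tRNA ligases), none was among the 200, and their SDs ran from 0.230 to 1.06 with a median of 0.339. None of 36 genes named as mitochondrial was in the set (median SD 0.392), nor any of 19 signalling enzymes (0.338), 11 RNA processing genes (0.294) or 10 transcription and chromatin genes (0.346). None of 16 membrane traffic genes was in it either, with a median SD of 0.280, the lowest of these families, and the nearest of them ranked 219. Of 13 protein turnover genes that matched the words, ariadne-2 was a member, and their median SD was 0.307.

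A search for names of customary reference genes matched 10 genes, of which 9 had a mean of at least 20 CPM and none was a member. Of the 9, 4 had names from the unselected sources, with SDs of 0.339 to 0.418, around the 0.378 of all 5813 genes. The one of smallest SD, the 39S ribosomal protein L13 (LOC100643965), is the mitochondrial protein and not the cytosolic one used as a reference, and the search picked it up by its name. It ranked 2370 of 5813 with an SD of 0.339 and ran from 18.99 over 31.7 to 63.2 CPM. Group XV phospholipase A2 (LOC100644508) had an SD of 0.340 and ran from 43.2 over 72.0 to 116 CPM, and a peptidyl-prolyl cis-trans isomerase (LOC100642511) had an SD of 0.360 and ran from 48.4 over 108 to 175 CPM. In these 3 the SD was well above the 0.199 at the limit of the set.

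Polyubiquitin (LOC100643517) ranked 3316 and ran from 248 over 382 to 800 CPM. The other 5 have names only through the study's tables of genes that differed between its groups, so a high SD was favoured. Group XIIA secretory phospholipase A2 (LOC100631065) had an SD of 0.562. Actin-5C (LOC100646910), a cytoskeletal actin, ranked 4699 with an SD of 0.656 and ran from 663 over 1304 to 3558 CPM. The flavoprotein subunit of succinate dehydrogenase (LOC100644194), an enzyme of the citrate cycle, had an SD of 0.944 and ran from 126 over 767 to 3749 CPM. The actins named actin, muscle (LOC100648239) and actin, clone 205 (LOC100648427) had SDs of 1.10 and 1.34. Tissue markers named from the unselected sources held no member: 2 muscle genes had SDs of 0.560 and 0.756, and 4 digestive genes had SDs of 5.65 to 6.06. One gene of the axoneme list, the cytoplasmic dynein heavy chain (LOC100647009), ranked 566, and it is a motor of all cells that the name search picked up.

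The pathway lists that accompany the study give a further view, with the limit that the study chose these pathways on the same bees. The genes were read from the study's enrichment results, which can list only those that drove a pathway's shift, and not the whole pathway. Lists that ended early, 13 beside 78 complete ones, were left out. Gene counts per pathway below are of listed genes with a mean of at least 20 CPM. Over 51 pathways with 686 genes, 8.48% of the 5813 genes were listed and 6 of the 200 (3%). Aminoacyl-tRNA biosynthesis, which charges tRNAs for translation, held 2 members, LOC100650423 (80.2, 103 and 144 CPM as lowest, median and highest level) and LOC100650556 (32.3, 53.1 and 75.3 CPM) among its 26 genes. Ribosome biogenesis in eukaryotes held 2 members, LOC100650687 (24.03, 31.2 and 41.5 CPM) and LOC100644006 (90.9, 131 and 171 CPM) among its 23 genes. Mitophagy, the removal of mitochondria by autophagy, held LOC100644006, LOC100646673 (40.5, 56.6 and 73.8 CPM) and LOC100646867 among its 21 genes. The citrate cycle had no member among its 21 listed genes, whose median SD was 0.868, and listed genes may have been picked for shifting. Counts this small were not tested against the 3.44% share of the set.

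The 5 members of highest level per kilobase of exon were LOC105666160, LOC100645354, LOC100643803, LOC100652074 and LOC100645394. LOC105666160, at a mean of 367 CPM per kilobase, ran from 1192 over 1610 to 2343 CPM. It had fractional counts in 93.8% of bees, so its reads were shared with other genes or overlaps and its level is uncertain. The other 4 had means of 85.0 to 107 CPM per kilobase, with fractional counts in 25.9% to 70.4% of bees.

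The exon length of the 200 had a median of 2745 bases against 2552 bases over the 5813 genes, but a narrower span. None of 528 genes with less than 1000 bases of exon was in the set, whereas 107 of 2095 genes between 2000 and 4000 bases were (5.11%). Above 8000 bases, 5 of 406 were (1.23%). The span of the gene on the genome had a like median, 4207 against 4451 bases, but its 95th percentile was 14065 bases against 61860 bases over the 5813 genes. Genes of very long span were thus few among the 200. With the length slope regressed out of every gene, 140 of the 200 genes stayed in the set.

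Within the set, 174 of 200 genes had a positive share of their variance between sites, as had 5103 of the 5813 genes. The share, an intraclass correlation over the 16 sites, had a median of 0.0963 against 0.111 over the 5813 genes. The share of variance between belts had a median of 3.19% against 3.64%. The small total spread of the set was therefore divided between sites, belts and single bees much as in other genes. The pooled SD within sites had a median of 0.173 against 0.356.

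The median SD within a belt was 0.161 in mid-elevation, 0.176 in lowland and 0.188 in highland bees. In 110 of the 200 genes the highland bees had the largest SD of the 3 belts, in 54 the lowland and in 36 the mid-elevation bees. The same count was not made over all genes. Per bee, the root mean square distance of the 200 genes from their means ran from 0.0994 in bee 4 of site Wma2 to 0.318 in bee 5 of site Wmb1. The 2 libraries of lowest total, bee 5 of Wmb1 (15700759 counts) and bee 5 of H2 (16296367 counts), had the largest distances, 0.318 and 0.276. Bee 5 of Wmb1 alone gave the lowest or highest value in 35 of the 200 genes. Without these 2 libraries, 174 of the 200 genes stayed in the set. At the median over bees, the distance in the 200 genes was 0.161 in mid-elevation, 0.164 in lowland and 0.187 in highland bees. Over all genes with a mean of at least 20 CPM it was 0.678, 0.707 and 0.714, in the same order of belts. The order of the belts is thus not particular to the set.

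Taken as a sum, the 200 genes came to 14592 to 18655 CPM, with a median of 16322 CPM. The lowest, median and highest sums were 14845, 16334 and 18555 CPM in lowland, 14592, 16242 and 17560 CPM in mid-elevation and 15327, 16424 and 18655 CPM in highland bees. The belts overlapped over most of their ranges. As a share of all counts before TMM scaling, the sum varied more, from 1.15% to 2.28%.

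The widest ranges inside the set were held by single bees. LOC100642561 ran from 44.9 CPM in bee 3 of H6 to 109 CPM in bee 5 of H6, which is 2.44 times. LOC100642801 had its extremes in the same bees, 94.7 and 229 CPM. LOC105665610 ran from 39.2 CPM in bee 3 of H6 to 92.7 CPM in bee 5 of H2, LOC100645193 from 25.5 to 61.5 CPM and LOC100648398 from 46.2 to 108 CPM. Bee 3 of H6 was the lowest bee in 3 of these 5 genes.

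The highland bees were compared with the lowland bees to see what difference between belts remained in genes that vary so little. Of all 9475 genes tested, 156 (1.65%) passed an adjusted p of 0.05, and 5 of the 200 did (2.5%), all higher in highland, where 71 of all genes were higher (0.749%). None of the 200 and 85 of all genes (0.897%) were lower. At an unadjusted p below 0.05 there were 39 of the 200 (19.5%) and 17.4% of all genes. The share of calls in the set was thus close to that of other genes. The choice of members used all bees of all belts, so it bounded the size of any difference: log2 fold changes ran from −0.15 to 0.19 in the 200, with a median size of 0.049 against 0.106 over the 5813 genes. None of the 200 reached a log2 fold change of 0.5, as 65 of all genes called did (0.686%).

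LOC100649191 had a lowest, median and highest level of 58.3, 77.3 and 88.8 CPM in lowland, 66.7, 80.9 and 95.5 CPM in mid-elevation and 71.2, 85.2 and 132 CPM in highland bees. The highland range began above the lowland minimum and ended above its maximum, with broad overlap between. Highland against lowland, the log2 fold change was 0.17 ± 0.045 (SE, edgeR quasi-likelihood test, adjusted p = 0.0349 over all genes). All 5 highland site means, 79.2 to 92.1 CPM, lay above the 6 lowland site means of 73.2 to 79.2 CPM, though the closest means were nearly level.

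LOC100646470 had 56.4, 66.5 and 95.8 CPM in lowland and 61.9, 77.3 and 99.4 CPM in highland bees (log2 fold change 0.18 ± 0.048 SE, edgeR adjusted p = 0.0358). Its site means overlapped, since lowland site Wmb1 had 80.2 CPM and the highland sites 73.6 to 80.8 CPM. LOC100647560 had 29.7, 37.2 and 46.5 CPM in lowland and 33.3, 42.3 and 56.9 CPM in highland bees (0.19 ± 0.050 SE, edgeR adjusted p = 0.0358). Highland site means of 39.8 to 45.4 CPM met lowland site means of 34.7 to 40.4 CPM at their edges.

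LOC100648278 had 71.4, 92.2 and 108 CPM in lowland and 78.8, 99.5 and 145 CPM in highland bees (0.17 ± 0.047 SE, edgeR adjusted p = 0.0402). Site H6 had its highest mean, 110 CPM. LOC100646867, of the mitophagy list, had 17.6, 28.03 and 32.6 CPM in lowland and 22.9, 30.3 and 39.5 CPM in highland bees (0.17 ± 0.047 SE, edgeR adjusted p = 0.0449). Its lowest value came from bee 5 of Wmb1, the library of lowest total. Each gene was also tested for a slope on each of these scores over bees. None of these 5 genes followed the gut-type score at an adjusted p of 0.05, and of them LOC100646470 followed the length slope (edgeR adjusted p = 0.0184). Suppressor of cytokine signaling 5 was the named gene nearest to the threshold, with a log2 fold change of 0.15 and an edgeR adjusted p of 0.0501. It followed the gut-type score (edgeR adjusted p = 0.0107), the length slope (0.00503) and the total count (0.0188).

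**Figure D3:**
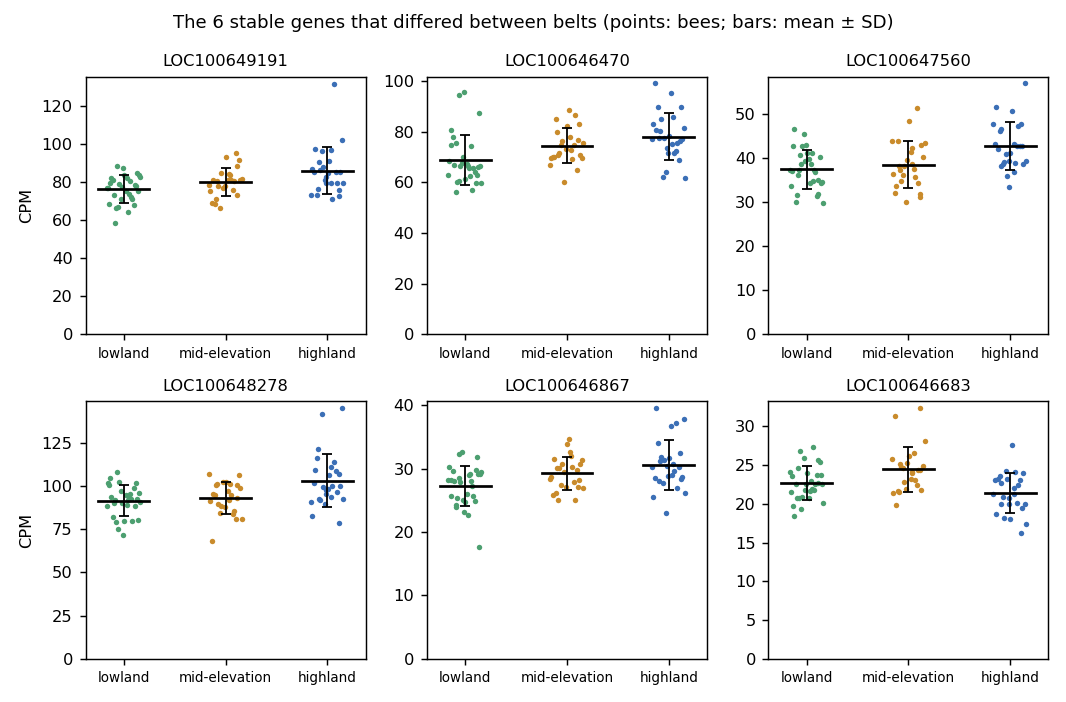
CPM in every bee for the 6 stable genes called between belts, by belt (30 lowland, 25 mid-elevation and 26 highland bees); black bars give the mean ± SD. The belts overlap in each gene, the first 5 are higher in highland than in lowland with log2 fold changes of 0.17 to 0.19, and LOC100646683 is lower in highland than in mid-elevation by 0.20.

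These belt calls rested on bees counted as independent. With site as a random block (limma-voom) or with the counts summed per site, 0 of the 200 and 0 of all genes passed, and the adjusted p of the 5 genes was 0.499 to 0.517 with the block. At an unadjusted p below 0.05 the summed counts gave 7 of the 200 and 606 of 9998 genes. With the length slope as covariate none of the 5 passed (edgeR adjusted p = 0.0907 to 0.117), and none of the 200 did when site H6, T4, T5 or Wma1 was left out.

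Between highland and mid-elevation, 32 of 9475 genes passed (0.338%) and 1 of the 200 did, LOC100646683, which was lower in highland. Its lowest, median and highest level was 18.4, 22.6 and 27.3 CPM in lowland, 19.8, 24.4 and 32.4 CPM in mid-elevation and 16.3, 21.3 and 27.7 CPM in highland bees. The ranges of the bees overlapped. Its log2 fold change was −0.20 ± 0.048 (SE, edgeR adjusted p = 0.0435), and all 5 highland site means, 18.5 to 22.03 CPM, lay below the 5 mid-elevation site means, 23.01 to 25.8 CPM. The call was lost in the unmoderated test per gene (adjusted p = 0.115), with site as a random block (adjusted p = 0.729) and when any one of 7 sites was left out, among them Wmb3 and H5. At an unadjusted p below 0.05 there were 22 of the 200 (11%) and 15.1% of all genes, and with a log2 fold change of at least 0.5 none of the 200 and 20 of all genes (0.211%) passed.

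Between mid-elevation and lowland, none of the 200 passed by edgeR and 42 of 9475 genes did (0.443%), of which 28 were lower in mid-elevation (0.296%) and 35 had a log2 fold change of at least 0.5 (0.369%). At an unadjusted p below 0.05 there were 17 of the 200 (8.5%) and 15.9% of all genes, and DESeq2 called 1 of the 200. Log2 fold changes of the 200 ran from −0.19 to 0.16 with a median size of 0.042. The 3 comparisons share their belts and are not independent of each other. In a test of any difference among the 3 belts, 188 of 9475 genes (1.98%) and 5 of the 200 passed.

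Sites differed more often than belts. Over the 16 sites, 2581 of 9932 genes passed (26%) and 16 of the 200 did (8%). Between sites of the same belt, 1876 genes (18.9%) and 11 of the 200 (5.5%) passed, 9 of them among the 16. At an unadjusted p below 0.05 over the 16 sites there were 43 of the 200 (21.5%) and 44.4% of all genes. The gap between the set and all genes was narrower in another test. edgeR moderates each gene's dispersion, drawing it toward that of other genes. It raised the dispersion of all 200 genes, from a median of 0.111 to 0.123, and that of 3982 of all 9932 genes, whose median went from 0.543 to 0.537. The 200 were chosen for a small SD, so a rise follows from the choice. Whether moderation makes the gap was not tested. In a linear model per gene on log2(CPM + 1) without such moderation, which also replaces edgeR's count model, 26 of the 200 (13%) and 17.3% of all genes passed over the 16 sites, and 33.5% and 37.8% had an unadjusted p below 0.05.

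**Figure D4:**
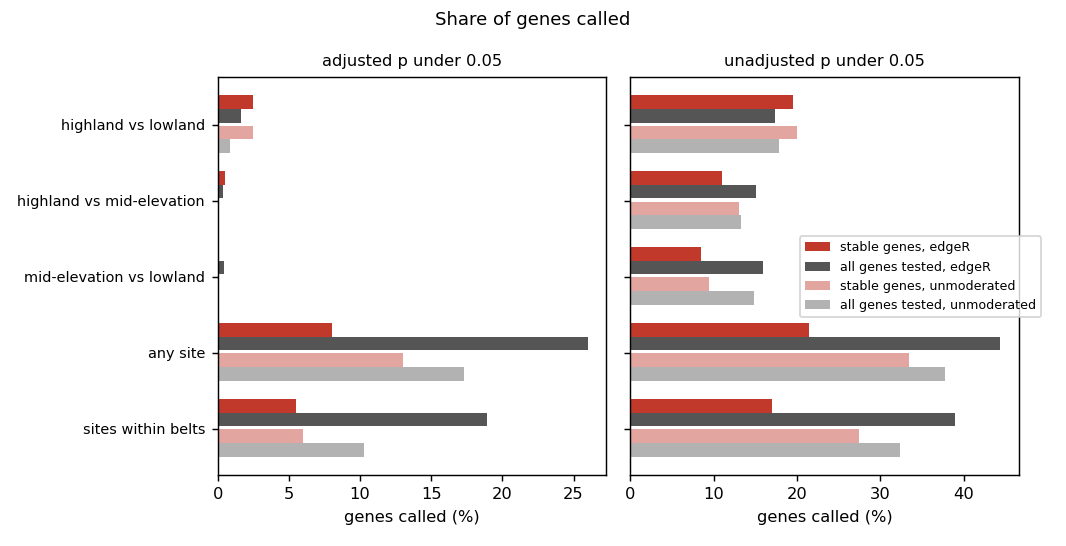
Percent of genes called in 5 comparisons, for the 200 stable genes (red) and all genes tested (grey), by edgeR (dark bars) and by an unmoderated linear model per gene (pale bars); left at an adjusted p below 0.05 and right at an unadjusted p below 0.05. Over the 16 sites edgeR called 8% of the stable genes and 26% of all genes, and the unmoderated model 13% and 17.3%.

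The gene of smallest p over sites was LOC100645022, with an edgeR adjusted p of 0.00652. Its site mean was highest at mid-elevation site Wmb2 with 43.6 ± 2.09 CPM (SD, n = 5) and lowest at mid-elevation site Wmb3 with 32.7 ± 0.813 CPM (n = 5), so that the extremes lay in one belt. No bee of Wmb3 reached the lowest bee of Wmb2. The other mid-elevation sites lay between them, and lowland site T5 had a mean of 35.1 CPM. It followed the total count of the library (edgeR adjusted p = 0.000225) and neither score.

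LOC100642689 (edgeR adjusted p = 0.00737) was highest at lowland site T5 with 92.7 ± 5.95 CPM (SD, n = 5) and lowest at highland site H6 with 69.4 ± 10.6 CPM (n = 9), with overlapping bees. It followed both the gut-type score (edgeR adjusted p = 2.71e-07) and the length slope (3.76e-13). LOC100652132 (0.0109 by the same test over sites) was highest at H2 with 113 ± 12.98 CPM and lowest at T4 with 85.3 ± 10.03 CPM, both lowland sites whose bees did not overlap. It followed neither score.

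LOC100643653 (edgeR adjusted p = 0.0219) was highest at T5 with 71.8 ± 10.5 CPM and lowest at T3 with 53.2 ± 5.64 CPM, both lowland, and it followed both scores. LOC100643881 (edgeR adjusted p = 0.0242) was highest at Wmb1 with 39.7 ± 3.47 CPM and lowest at T4 with 31.5 ± 0.915 CPM, again both lowland and without overlap, and it followed the length slope (0.0342) and the total count (0.00985). With the gut-type score as covariate, LOC100642689 and LOC100643653 were no longer called (edgeR adjusted p = 0.226 and 0.136), nor with the length slope (0.268 and 0.117).

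**Figure D5:**
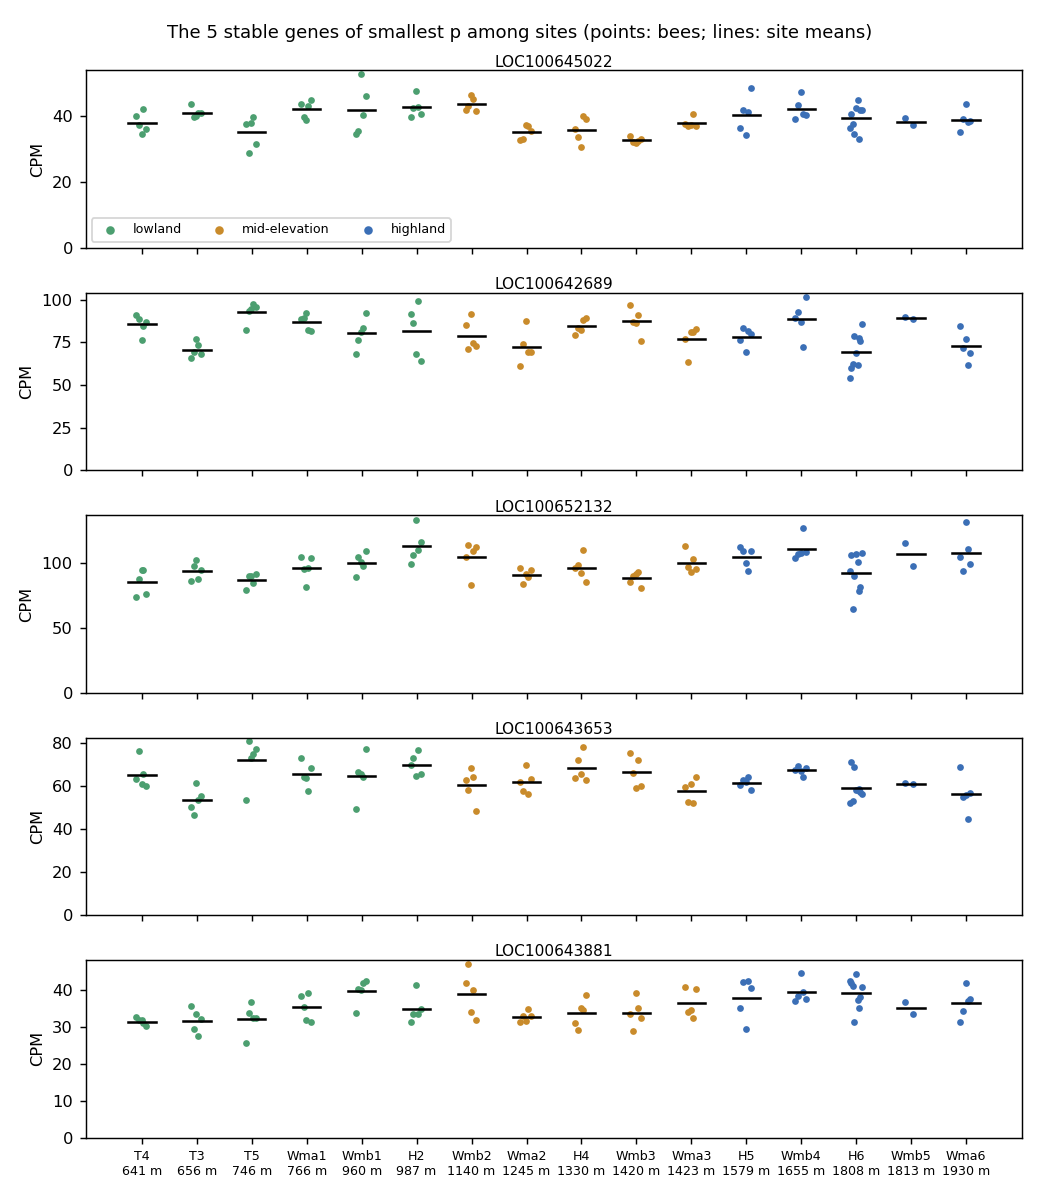
CPM in every bee by site, in order of altitude from 641 to 1930 m, for the 5 stable genes of smallest p over the 16 sites; lines are site means and colours are belts. In LOC100645022 the highest and lowest site means, 43.6 CPM at Wmb2 and 32.7 CPM at Wmb3, both lie at mid-elevation.

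Among named members, the Smad homolog LOC100646575 passed over sites (edgeR adjusted p = 0.0263), with 63.8 ± 2.95 CPM (SD, n = 5) at lowland site T4 and 47.7 ± 3.27 CPM (n = 2) at highland site Wmb5. The ribosome assembly ATPase LOC100647802 also passed (edgeR adjusted p = 0.0395), with 49.8 ± 7.34 CPM at Wmb5 (n = 2) and 37.6 ± 2.49 CPM at mid-elevation site Wma3 (n = 5). Both genes followed the gut-type score and the length slope. The other 17 named members did not pass over sites.

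Over all 200 genes, the mean of the highest site was 1.15 to 1.45 times that of the lowest site, with a median of 1.28 times. The bees of these 2 sites did not overlap in 95 of the 200 genes, and in 13 of the 16 genes called over sites. The 2 sites were picked in each gene as its extremes among 16 small groups, and the count was not made over all genes. A lack of overlap is therefore no trait of the set and does not by itself mark a site difference. Site Wmb5, with its 2 bees, held the highest mean in 31 genes and Wma6 in 25. Site T3 held the lowest mean in 29 genes, Wma2 in 22 and H2 in 20, and Wma3 held the highest mean in none. Of the 16 genes called over sites, 12 followed the length slope, 7 the gut-type score and 6 the total count of the library. Over the whole set, 85 of 200 followed the length slope (42.5%, against 53.8% of all genes), 41 the gut-type score (20.5% against 34%) and 49 the total count (24.5% against 40.9%). Of the 200, 77 followed none of the 3, a count that was not made over all genes. Of the genes that followed the length slope, 47 rose with it (23.5%, against 23.6% of all genes) and 38 fell (19%, against 30.2%). With the gut-type score 10 rose (18.9% of all genes did) and 31 fell (15.1% of all genes did), and with the total count 19 rose (19.5% of all genes did) and 30 fell (21.4% of all genes did). With the total count as covariate, 16 of the 200 passed over sites, and with the length slope or the gut-type score 5 did. The calls over all genes also moved between alternatives of this test, from 1168 to 4316 with the bees of every number kept.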

How the data were processed

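The authors deposited estimated counts per gene: poly-A RNA was read in reverse-stranded libraries, trimmed with cutadapt 2.5, aligned with STAR 2.7.2b to the Bombus terrestris genome Bter_1.0 and counted over exons with featureCounts 1.6.4, which splits reads shared between places into fractions. The estimated counts were rounded here. Altitude labels gave the belts; site Wma3 at 1423 m, just above the stated range, was placed in mid-elevation. CPM used TMM totals. Belts and sites were tested with edgeR 4.0.16 (quasi-likelihood F test, filterByExpr, Benjamini-Hochberg over all genes tested) in R 4.3.3, with limma 3.58.1 and DESeq2 1.42.0 as alternatives, and the scripts were tested on simulated data. The set and the gene lists were chosen with earlier results of these data known. Genes named in the text were, by rule, the 10 of smallest SD, the 10 named ones of smallest SD, the 5 of highest level per kilobase, up to 5 of smallest p per belt comparison and direction, the 5 of smallest p over sites, those at the limit, up to 4 per name family, every gene matching a customary reference name and the 5 of widest range; the other 9 named members and the 6 of the pathway lists were added after their values were seen. Names came from the count table and the study's supplementary tables, matched by gene identifier. Genomic sequences were not used here, and of positions only each gene's span. All count columns belonged to a sample of the series. Fold thresholds, other scalings, covariates and left-out sites were tried as alternatives.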

Additional observations from a re-analysis of the deposited data

Results flagged for a closer look

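Of 105 tests, each of 1 quantity over the bees of 1 site, 6 had a bee standing apart from the others, and chance gives about 1 in 20. The tests reuse the same bees and are not independent. Bee 3 of site H6 had the lowest share of its counts in the 200 genes, 1.15%, with 1.44% to 1.74% in the other bees of that site. The remaining 5 concern the genes of smallest p over sites. LOC100645022 was at 40.5 CPM in bee 2 of Wma3, with 37.0 to 37.6 CPM in the others. LOC100642689 was at 82.3 CPM and LOC100643653 at 53.6 CPM in bee 1 of T5, both below the other bees there (from 93.5 and 73.1 CPM). LOC100652132 was at 127 CPM in bee 2 of Wmb4, with up to 109 CPM in the others. LOC100643881 was at 33.8 CPM in bee 1 of Wmb1, with at least 40.1 CPM in the others.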

How the results depend on the processing

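Which genes make up the set depended most on the scaling: with plain library totals 83 of the 200 stayed, with a mean CPM minimum of 50 it was 120 and with the median absolute deviation 119, while the other alternatives kept 140 to 196 and leaving out 1 site kept 164 (H6) to 196 (Wmb5). In the order highland vs lowland, highland vs mid-elevation, mid-elevation vs lowland and any belt, where 5, 1, 0 and 5 of the 200 were called, the counts became 3, 1, 1 and 2 with DESeq2 size factors, 2, 1, 1 and 2 with the gut-type score as covariate, 0, 1, 0 and 0 with the length slope, 0 in each with site as a random block, with summed counts or (any belt not tested) with a fold threshold of 0.5, and 5, 0, 0 and 0 in the unmoderated test. Without a filter any belt gave 2, without the 2 shallowest libraries highland vs lowland gave 8, and DESeq2 with the study's prior gave 8, 1 and 1. Leaving out 1 site gave 0 to 11, 0 to 7, 0 to 2 and 0 to 13, the highest without Wmb1 or, for the last 3, Wmb2, and any belt fell to 0 without H4, T4, T5, Wma1, Wma2 or Wmb3. Over all sites and within belts, where 16 and 11 were called, the counts were 26 and 14 with DESeq2 size factors, 26 and 17 without a filter, 5 and 4 with either score, 34 and 18 without the 2 shallowest libraries, 26 and 12 unmoderated, and 54 over all sites by the DESeq2 likelihood ratio test. Without the bees of 1 number they were 0 to 18 and 0 to 15, lowest without bees numbered 3 and highest without those numbered 5. The calls over all genes moved too. Without the bees of 1 number they ran from 720 to 1890 over all sites and from 393 to 1342 within belts. Over the other alternatives they ran from 1168 to 4316 and from 752 to 2278.

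The labels do not say whether a bee number shared between sites has a meaning. Over bees of different sites, the median correlation of deviations from site means was 0.0514 for the same number and −0.0215 for different numbers. With bee number as a replicate block, the counts of the 200 were 7, 1, 0 and 7 for belts and 35 and 17 for sites. For all genes they were 274, 257, 22 and 459 for belts and 3421 and 2278 for sites. Without the block they were 156, 32, 42 and 188 for belts and 2581 and 1876 for sites. Calls over all genes thus rose in all but mid-elevation vs lowland, and what the number stands for was not tested. Numbers 6 to 9 occur only at highland site H6, so the block fits each of these bees exactly. They then no longer count in the comparisons, and the change in calls cannot be laid to the number alone. No fold change of a called gene reversed in sign under these alternatives. For all genes, highland vs lowland ran from 0 to 410 calls over the alternatives that keep every site (length slope as covariate 11, DESeq2 with the prior 290, unmoderated 81) and from 2 to 520 with 1 site left out. The unmoderated test, the 2 shallowest libraries left out, the total count as covariate and the scores regressed out of the set were chosen after seeing the data. Counting error was a small part of the spread of these genes, at 4.67% of their variance at the median.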
